A study of Rattus norvegicus with 56 samples.

Results

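Intermittent theta burst stimulation (iTBS) was set directly against 1 Hz stimulation 8 h after the end of repetitive transcranial magnetic stimulation (rTMS), without sham cultures in the contrast. The members were chosen by sample title and were 3 iTBS arrays and 4 arrays of the 1 Hz protocol, 7 of the 56 arrays of the series. The RNA came from primary hippocampal neuron cultures of Sprague-Dawley rat embryos at embryonic day 18, and each array held RNA of 1 sample. All 7 cultures had been stimulated from a coil beneath the dish at one stimulator output, and the methods give both protocols the same total number of pulses, delivered in repeated blocks. Sham cultures of the same time point (3 arrays), for which the coil was moved away, serve only as a background level. The labels do not say whether the arrays of a group came from separate cultures or preparations, so p-values measure a spread between samples that may be technical. In the main fit that spread was pooled within 16 groups of the series, not taken from these 7 arrays alone. A dissociated culture has no hippocampal circuit, and in total RNA fewer cells of a type cannot be told apart from less RNA per cell.

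In rTMS, a changing magnetic field induces a brief electric current in the tissue. At 1 Hz the pulses are evenly spaced, whereas iTBS packs them into short high-frequency bursts that return at the theta rhythm, with pauses between trains. In the motor cortex, low-frequency stimulation is known for lowering excitability and iTBS for raising it. In neurons, synaptic activity and calcium entry first induce immediate early genes such as Fos, Egr1 and Npas4 and then effector genes of synapses and growth factors, so a direct comparison at 8 h asks whether the pattern of pulses left different transcripts behind.

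Values are log2 processed signals scaled within each array to a mean of 0 and a common SD, so that a difference of 1 is a change of 2-fold. A probe was called at a Benjamini-Hochberg adjusted p under 0.05 in limma over 35688 probes. Over the 7 arrays, 69.7% to 75.3% of spots were well above background, the 75th percentile of the processed signal lay between 2986 and 7429, and levels correlated between 0.955 and 0.991 in every pair of arrays. The number of arrays limits the precision of every comparison.

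The numbers in the sample labels run consecutively from sham to 1 Hz to iTBS and fall into 4 series, named A to D here. By these numbers, iTBS replicates 1, 2 and 3 match 1 Hz replicates 2, 3 and 4 in series B, C and D, and 1 Hz replicate 1, of series A, has no iTBS partner. The labels do not state this matching. It was inferred from the numbers, and the arrays it matches deviated together from their group means, with correlations over probes of 0.48, 0.54 and 0.48. The matched arrays of series B and of series C lay on the same slide, and those of series D on different slides. Where a result is given by matched pair, the order is series B, C and D.

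Both groups held something that stood apart. For 1 Hz replicate 1, 10.6% of 21264 probes lay over 1 log2 unit from the median of the other 6 arrays, and 1661 of these 2254 probes were lower. The other arrays had 2.93% to 6.47% such probes. On iTBS replicate 2, a patch of bright local background covered the place of one of the named spots, and it is described with Endou. For many values that either array set, this is said beside them, but not for every gene and list.

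One probe was called, Endou, which encodes a poly(U)-specific endoribonuclease. It was higher after iTBS, and 0.00280% of all probes tested were called. Its processed signal was 25.2, 191 and 45.96 on iTBS replicates 1, 2 and 3. On the 1 Hz arrays it was 2.68, 3.07, 3.73 and 3.12, and on the sham arrays 3.59, 4.40 and 4.01. The 3 iTBS arrays were the only ones of these 10 on which the spot was well above background, so the groups did not overlap. On the scaled log2 scale, iTBS had a mean of -0.81 ± 1.49 (SD, n = 3). The mean of 1 Hz was -4.85 ± 0.11 (SD, n = 4), and that of sham -4.74 ± 0.07 (SD, n = 3). The difference from 1 Hz was 4.04 ± 0.52 (SE) log2, with a 95% confidence interval from 2.99 to 5.09 and a limma adjusted p of 4.09e-05. The SE was pooled over 55 arrays, and Endou was well above background on only 6 of them, while the SD within iTBS was 1.49. Because the 1 Hz level lay at background, this difference has no sure size, and only a bound can be given. Set against the dimmest signals still well above background on the 1 Hz arrays, the mean reading after iTBS was at least 3.88-fold higher. Without iTBS replicate 2 it was at least 2.14-fold higher. The first bound includes the reading of iTBS replicate 2, whose spot was no brighter than its local background. Both bound the reading of the spot, and the part of its surroundings was not removed. Within matched pairs the differences were 2.96, 5.66 and 3.41, and with the label triplet as a block over all groups the difference was 4.01 ± 0.49 (SE), adjusted p = 0.000538, but with that block on the 6 matched arrays alone it was not called (adjusted p = 0.921).

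**Figure D1:**
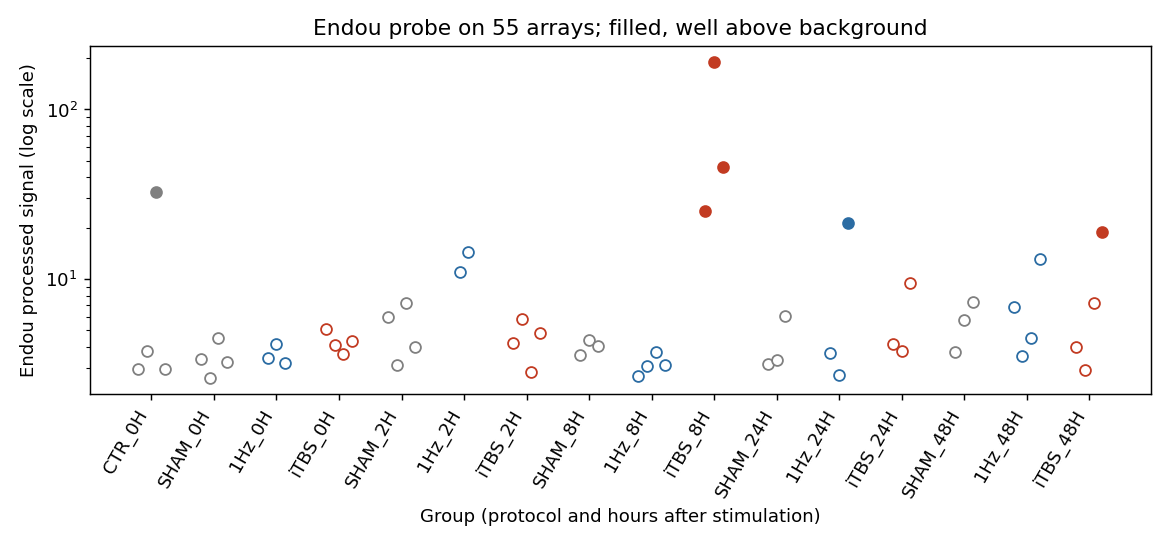
Processed signal of the Endou probe (log axis) on each of 55 arrays, by group in order of time; grey is sham or untreated control, blue 1 Hz and red iTBS, and filled points were well above background. The 3 arrays of iTBS at 8 h are filled, while 3 of the other 52 arrays are.

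The signal of Endou came from a spot near the edge of the array, in row 382 of 384 and column 137 of 164, and its surroundings differed between arrays. On iTBS replicate 2, the raw median signal of the spot was 209 and its local background 241, against a median local background of 26 on that array. The spot was thus no brighter than the glass around it, and both background flags of the scanner software were set. On iTBS replicates 1 and 3 the raw signals were 57.5 and 78.5 over local backgrounds of 22 and 21. On the 1 Hz arrays the raw signal lay between 31.5 and 34 over local backgrounds of 18 to 23. Those 2 iTBS arrays thus had a spot brighter than on any 1 Hz array over a background of the same height.

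Spots within 3 rows and 3 columns of Endou, a window chosen after the values were seen, numbered 40 with Endou itself. On iTBS replicate 2, 22 of them had a local background over 2 times the median of the array, and none did on any of the other 54 arrays. The 21 dim spots of the window had a median raw signal of 44 on iTBS replicate 1, 69.5 on replicate 2 and 68 on replicate 3, against 37 to 42.5 on the 1 Hz arrays and 42 to 47 on the sham arrays. The spots around Endou were therefore also bright on iTBS replicates 2 and 3, and on replicate 1 only slightly above the 1 Hz arrays and inside the range of sham. These raw signals were not scaled between arrays. The 75th percentile of processed signal was highest on iTBS replicate 3 among the 7 arrays, at 7429. Of 33 other probes tested there, 9 (27.3%) had an unadjusted p under 0.05, all higher after iTBS, against 0.975% of all probes, and 3 (9.09%) had groups that did not overlap, against 1.56%. Of the 20 smallest p-values of the whole comparison, 6 belonged to this window. The part of the surroundings in the difference of Endou was not tested. Without spots on a bright local background, which removes iTBS replicate 2 here, Endou was still called, with a difference of 3.18 and an adjusted p of 0.0119.

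**Figure D2:**
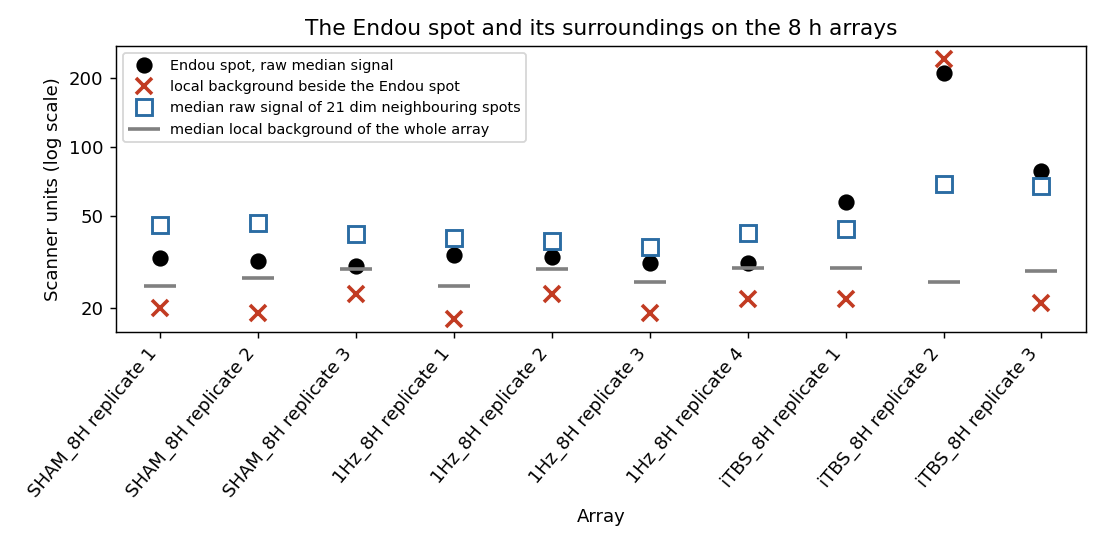
Raw median signal of the Endou spot, local background beside it, median raw signal of 21 dim neighbouring spots and median local background of the whole array (scanner units, log axis) on the 10 arrays of 8 h. On iTBS replicate 2 the local background (241) lies above the Endou spot (209), and the neighbouring spots are brightest on iTBS replicates 2 and 3 (69.5 and 68).

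The neighbours that led this window were named after their values were seen, and none was called. Probe A_44_P1104160, which has no symbol here, read -4.02, -0.07 and -2.01 after iTBS and from -4.95 to -4.28 after 1 Hz, with an adjusted p of 0.539. It was well above background on 2 iTBS arrays and no 1 Hz array, with a bound of at least 1.66-fold that rested on iTBS replicate 2. S100a8, a calcium-binding protein of neutrophils and monocytes, read -3.38, -2.50 and 0.50 after iTBS and from -4.94 to -4.55 after 1 Hz, adjusted p = 1.00. It was well above background on 1 iTBS array and no 1 Hz array, with a bound of at least 1.96-fold that rested on iTBS replicate 3. Both were highest on iTBS replicates 2 and 3, as the dim spots around them were. Probe A_44_P1136247 was the exception, with -0.88, -1.33 and -0.00 after iTBS and -4.94 to -3.13 after 1 Hz, well above background on 3 of 3 iTBS arrays and on none of the 1 Hz arrays. Its mean reading was at least 4.07-fold higher after iTBS, and the difference had an adjusted p of 1.00. That bound was 3.15-fold without iTBS replicate 3 and 5.01-fold without iTBS replicate 2. Itpripl1 read -2.12, -0.34 and -2.12 after iTBS and from -3.39 to -2.11 after 1 Hz, and its groups overlapped. With the label triplet as a block its difference was 1.36 ± 0.23 (SE), adjusted p = 0.0641. On iTBS replicate 2 all of these spots had a raw signal below their local background. These were 69.5 against 113 for A_44_P1136247 and 119 against 265 for A_44_P1104160. For S100a8 they were 48 against 56, and for Itpripl1 106 against 130.

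At the other times Endou lay at background after both protocols on all but 2 arrays, 1 of 1 Hz at 24 h and 1 of iTBS at 48 h, so differences there are between background readings and have no sure size. The mean reading after iTBS minus that after 1 Hz was 0.15 at 0 h, -1.58 at 2 h, where only 2 arrays of 1 Hz could be used, 0.09 at 24 h and 0.63 at 48 h. In these readings the difference at 8 h exceeded the mean of those at 0, 24 and 48 h by 3.75 ± 0.60 (SE), adjusted p = 0.00618, which is no measured fold, and Endou was again the 1 probe called (0.00280%), while 702 had an unadjusted p under 0.05. Without iTBS replicate 2 this contrast was 2.89 with an adjusted p of 0.508, without spots on a bright local background it was 2.89 with an adjusted p of 0.513, and with scaling to the 75th percentile it was 3.37 with an adjusted p of 0.216. Endou was also well above background on 1 array each of untreated control at 0 h, 1 Hz at 24 h and iTBS at 48 h, the highest with a processed signal of 32.4, above that of iTBS replicate 1 at 8 h.

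For Endou at 8 h, the call was lost when the background was modelled with normexp and an offset of 50 (0.11, adjusted p = 1.00). That offset makes log2 differences of dim spots smaller. The call was also lost when the fit held only the 7 arrays (4.04, adjusted p = 1.00). With the title number as a block on these 7 it was lost too (4.00, adjusted p = 1.00). The same held for the 6 matched arrays alone with the label triplet as a block (4.01, adjusted p = 0.921). Leaving out both iTBS replicate 2 and 1 Hz replicate 1 also lost it (3.16, adjusted p = 0.0526). No probe met the study's own criteria in this contrast.

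For the rest of the transcripts, differences were small against the spread. Among 26225 probes that were well above background on all 7 arrays, the median size of the difference was 0.12 log2, 95.8% differed by under 0.5 and 90 (0.343%) by over 1. The median half-width of the 95% confidence interval was 0.62 log2, and 0.39 with the label triplet as a block, so for a typical probe a change below these sizes could not be told from 0 even before adjustment. Over all tested probes, 348 (0.975%) had an unadjusted p under 0.05, of which 232 were higher and 116 lower after iTBS. Of these 348, 29.9% were well above background on all 7 arrays, against 73.5% of all probes tested, so dim probes made up most of them. With the label triplet as a block, 1202 probes (3.37%) had an unadjusted p under 0.05 and with the number series as a block 740 (2.07%), and in both fits the one call was Endou.

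**Figure D3:**
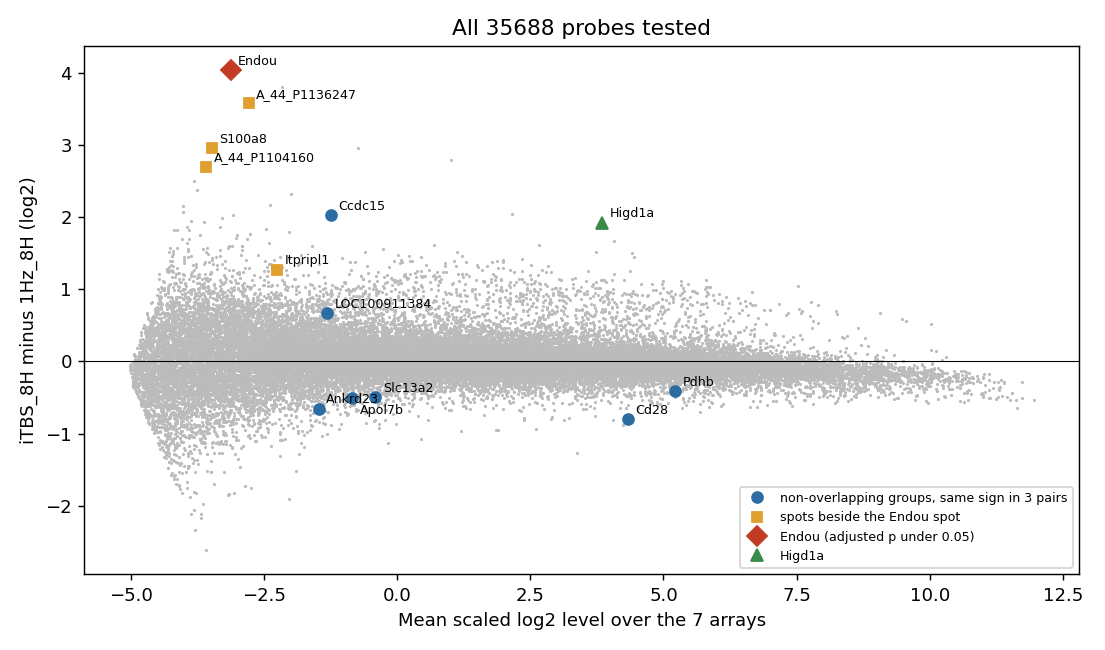
Difference iTBS minus 1 Hz at 8 h (log2) against the mean scaled log2 level over the 7 arrays for every probe tested (grey), with named probes marked. Endou and the spots beside it (4.04, 3.58, 2.95, 2.70 and 1.27) are dim probes whose differences from background readings have no sure size, and the cloud bends below 0 at the highest levels.

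The matched pairs gave a measure of how far 2 arrays of one number series differ, a spread that may be technical. Over 25781 probes that were well above background on all 10 arrays of 8 h, the differences iTBS minus 1 Hz had an SD of 0.31, 0.23 and 0.38 log2. For iTBS minus sham it was 0.26, 0.24 and 0.42, and for 1 Hz minus sham 0.35, 0.18 and 0.34. The arrays of the 2 protocols were thus about as far from each other as each was from its sham partner. The share of probes over 1 log2 unit apart was 0.671%, 0.272% and 1.83% for iTBS against 1 Hz, highest in series D. These arrays of series D lay on different slides, while its 1 Hz and sham arrays shared a slide and had 1.28%. In series B, pairs on different slides had 0.400% (iTBS minus sham) and 0.784% (1 Hz minus sham). The part of the slide was not tested.

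Genes with groups that did not overlap, an unadjusted p under 0.05, signal well above background on all 7 arrays and one sign in all matched pairs numbered 7, and none was called. Non-overlapping groups were found for 1.56% of all probes, and one sign in all matched pairs for 26.7%. The 5 lower after iTBS included Pdhb, the beta subunit of the pyruvate dehydrogenase component that feeds pyruvate into the citric acid cycle. Its levels were 4.999, 5.13 and 4.82 after iTBS, 5.63, 5.27, 5.19 and 5.49 after 1 Hz, and 5.23, 5.20 and 5.29 in sham. The iTBS arrays lay just below both other groups, and the difference from 1 Hz was -0.41 ± 0.19 (SE), 95% interval -0.80 to -0.03, adjusted p = 1.00. Cd28, named for the co-stimulatory receptor of T cells, read 3.39, 4.15 and 4.07 after iTBS, 4.22, 4.95, 4.55 and 4.95 after 1 Hz, and 4.64, 4.50 and 4.82 in sham. Again the iTBS arrays were the low ones, by -0.80 ± 0.34 (SE) against 1 Hz, and the closest arrays of the groups were 4.15 and 4.22. At 24 and 48 h the Cd28 difference had the opposite sign, 0.47 and 0.51.

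Ankrd23, an ankyrin repeat protein of muscle, differed by -0.66 ± 0.26 (SE), Apol7b, of the apolipoprotein L family, by -0.50 ± 0.24, and Slc13a2, a sodium-coupled carrier of dicarboxylates, by -0.49 ± 0.21, each with an adjusted p of 1.00. For Ankrd23 the 1 Hz arrays stood out, between -1.69 and -0.92, while iTBS (-1.89 to -1.74) lay inside the range of sham (-2.67 to -1.76) or just above it. Apol7b at -1.24 to -1.05 after iTBS also lay within sham, -1.28 to -0.64. Of the 2 higher genes, LOC100911384 read -1.07, -1.09 and -0.62 after iTBS and from -1.73 to -1.48 after 1 Hz, a difference of 0.67 ± 0.26 (SE), with sham between -1.38 and -0.92. Ccdc15, a coiled-coil protein, differed by 2.03 ± 0.59 (SE), but its matched pairs gave 0.77, 0.46 and 4.94. Its raw spot signal was 868 on iTBS replicate 3 and 44 to 68 on the other 6 arrays, so 1 array set the size.

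**Figure D4:**
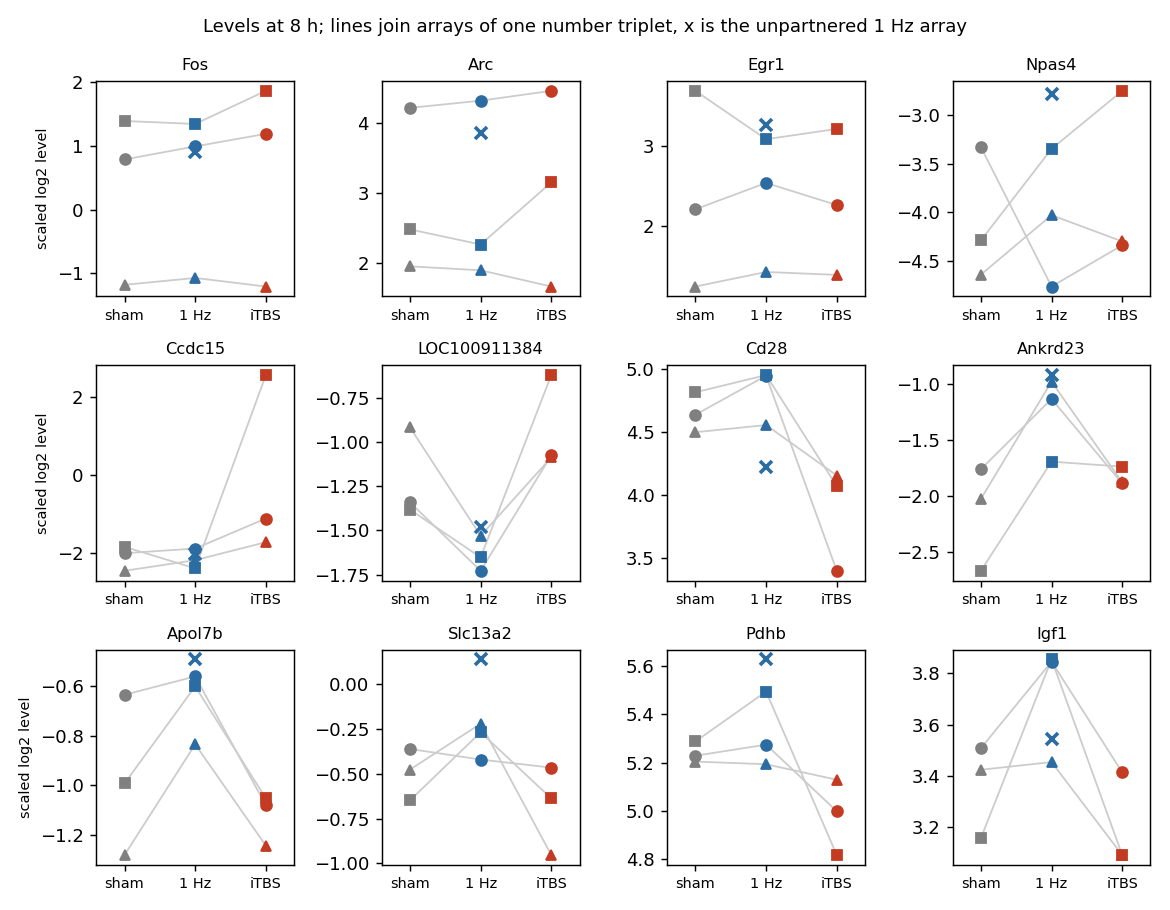
Scaled log2 levels of 12 genes on the 10 arrays of 8 h; symbols joined by a line belong to one label triplet (circle, series B; triangle, series C; square, series D), and the cross is 1 Hz replicate 1, without a partner. Fos, Arc and Egr1 differ more between series than between protocols, and Pdhb and Cd28 are lowest after iTBS.

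A single array also set the value of Higd1a, a hypoxia-inducible protein of the inner mitochondrial membrane. Its levels were 2.66, 9.26 and 2.93 after iTBS and between 2.77 and 3.56 after 1 Hz. On iTBS replicate 2 the raw signal of the spot was 58335, against 394 to 1208 on the other 9 arrays of 8 h. The difference of 1.92 ± 0.71 (SE), adjusted p = 1.00, became -0.23 without that array.

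Immediate early genes lay closer within a number series than within a protocol. Fos, a subunit of the AP-1 transcription factor, read 1.19, -1.21 and 1.86 after iTBS, 0.90, 0.99, -1.07 and 1.34 after 1 Hz, and 0.79, -1.18 and 1.39 in sham. The low array of every group was that of series C. The difference was 0.07 ± 1.26 (SE), 95% interval -2.47 to 2.62, and with the label triplet as a block it was 0.19, interval -0.45 to 0.83. Arc, which acts at synapses on the traffic of AMPA receptors, read 4.45, 1.67 and 3.15 after iTBS and 3.85, 4.31, 1.90 and 2.27 after 1 Hz. Its sham arrays of series B, C and D stood at 4.21, 1.96 and 2.48, near their stimulated partners. The blocked difference of Arc was 0.26, interval -0.23 to 0.76, and its largest pair difference was 0.88 in series D. Egr1, a zinc finger transcription factor, differed by -0.06 with the block, interval -0.79 to 0.67. Npas4, a factor induced by calcium entry, was not well above background on any of these 10 arrays. For Fos, Arc and Egr1 the blocked intervals were narrower than the unblocked ones, and all included 0.

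Gene lists were described by counts and medians, beside those of all genes. Of 37 lists with 794 genes, none held a called gene. Over the 13884 genes with a symbol, 52.9% were lower after iTBS, 0.778% had an unadjusted p under 0.05 and 26.0% had one sign in all matched pairs. In the lists, only Ntf4, Higd1a and Ndufa10 had an unadjusted p under 0.05. Ntf4, a neurotrophin, differed by -1.23 ± 0.60 (SE) with no array of either group well above background. Ndufa10, a subunit of respiratory complex I, read 3.07, 2.34 and 2.31 after iTBS and 0.31, 2.67, 2.26 and 1.89 after 1 Hz, so that only 1 Hz replicate 1 lay far below, and the difference of 0.79 became 0.30 without it.

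Among activity-regulated genes, 9 of 24 transcription factors and 5 of 24 effectors were higher after iTBS, with medians of -0.04 and -0.16. In matched pairs, 14, 12 and 19 of the factors were higher (medians 0.09, -0.00 and 0.26) and 9, 11 and 17 of the effectors (-0.09, -0.02 and 0.08). Without 1 Hz replicate 1, 18 factors (0.11) and 11 effectors (-0.0077) were higher. Of MAP kinase feedback regulators, which dampen growth factor signalling, 3 of 13 were higher (median -0.11), and 6 without 1 Hz replicate 1 (-0.027). Spred2, a member of that group, differed by 0.48 ± 0.37 (SE) without overlap, and by 0.36 without that array. Of neurotrophins and their receptors 4 of 12 were higher. Igf1, a growth factor of neurons and glia, read 3.41, 3.09 and 3.09 after iTBS and 3.54, 3.85, 3.45 and 3.85 after 1 Hz, with sham at 3.51, 3.42 and 3.16. The iTBS arrays lay below all 1 Hz arrays but overlapped with sham, and the blocked difference was -0.52 ± 0.25 (SE), interval -1.03 to -0.01, adjusted p = 1.00. Of neuropeptides and granule proteins, 1 of 22 was higher (median -0.20, in pairs -0.21, -0.08 and -0.03). Chga, a core protein of dense granules, differed by -0.45 ± 0.40 (SE), and without 1 Hz replicate 1 the list had 6 of 22 higher (-0.087). The exception, Pdyn, the dynorphin precursor, differed by 1.11 ± 0.69 with 1 Hz replicate 1, at -3.82, and by 0.17 without it.

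Receptors of the inhibitory transmitter GABA were higher in 4 of 15 genes (median -0.14), in 3, 12 and 6 by matched pair (-0.16, 0.07 and -0.04) and in 5 without 1 Hz replicate 1 (-0.048). Gabbr1, a subunit of the GABA-B receptor, read 6.75, 6.95 and 6.54 after iTBS and between 6.86 and 7.22 after 1 Hz, a difference of -0.23 ± 0.20 (SE). Genes of interneurons and GABA synthesis were higher in 5 of 14 (median -0.03), among them Reln, a secreted protein of hippocampal interneurons, by 0.21 ± 0.18 without overlap.

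Of the ionotropic glutamate receptors of AMPA and kainate type, 4 of 16 were higher after iTBS (median -0.11). One sign in all matched pairs was seen for 9 of the 16, of which 3 were higher and 6 lower, against 26.0% of all genes. Gria2, the subunit that makes AMPA receptors nearly impermeable to calcium, read 1.86, 1.93 and 1.83 after iTBS, 1.52, 1.68, 1.69 and 1.71 after 1 Hz, and 1.82, 1.69 and 1.77 in sham. The iTBS arrays lay above all 1 Hz arrays, but by little, with a difference of 0.23 ± 0.19 (SE), interval -0.16 to 0.61, adjusted p = 1.00. Cnih3, an auxiliary protein of AMPA receptors, differed by -0.34 ± 0.31, and Gria4 by -0.22 ± 0.23. NMDA receptor subunits were higher in 2 of 7 genes and metabotropic receptors in 5 of 8, and without 1 Hz replicate 1 in 4 and 2. Grin2d, an NMDA subunit, differed by -0.42 ± 0.40, and Grm6, a metabotropic receptor, by -0.68 ± 0.35, neither called.

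Downstream of the receptors, with all arrays, 4 of 21 calcium/calmodulin kinases and phosphatases were higher (median -0.12), 8 of 20 scaffolds of the postsynaptic density (-0.01) and 4 of 28 genes of presynaptic release (-0.12). Without 1 Hz replicate 1, 5, 7 and 11 were higher (-0.11, -0.017 and -0.046). Calm3, a calmodulin gene, differed by -0.25 ± 0.18 (SE). Nlgn2, an adhesion protein of inhibitory synapses, differed by -0.46 ± 0.25 without overlap. Without 1 Hz replicate 1, its high array at 5.83, the difference was -0.16. Dlg1, a scaffold, differed by 0.23 ± 0.29. Rab3a, a GTPase of synaptic vesicles, differed by -0.43 ± 0.40, Syt7, a calcium sensor of release, by 0.40 ± 0.37 (0.083 without 1 Hz replicate 1, which read -1.31) and Slc17a7, the vesicular glutamate transporter, by -0.41 ± 0.39. Potassium channels were higher in 14 of 36 genes (median -0.02) and sodium and calcium channels in 15 of 23 (0.08), and without 1 Hz replicate 1 in 22 (0.051) and 14 (0.070). Kcnk9, a leak channel, read -2.10, -4.98 and -2.01 after iTBS, so its difference of -1.17 ± 0.68 came from 1 array.

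Several of the larger group differences of neuronal genes were set by 1 Hz replicate 1. Rbfox3, which encodes the neuronal nuclear antigen NeuN, read 1.39 there and 4.95, 5.86 and 5.94 on the other 1 Hz arrays, against 4.79, 5.68 and 5.97 after iTBS. The group difference of 0.95 ± 0.57 (SE) thus stood beside matched differences of -0.16, -0.18 and 0.03, and it was -0.10 without that array. The difference of Neurod2, a factor of neuronal differentiation, changed from 0.75 to -0.11. The same array was lowest for Xbp1, a factor of the unfolded protein response (3.23, others 5.36 to 5.96), Aqp4, the water channel of astrocytes (5.87, others 7.81 to 8.37), and Sema3c, a guidance cue (-1.47, others 1.87 to 2.93). Without it these 3 differed by 0.030, -0.013 and 0.15. Its mean level of the neuronal markers was not low, at 6.48 against 6.22 to 6.71 on the other 1 Hz arrays. Of the 17 genes of hippocampal excitatory neuron identity, 9 were higher after iTBS (median 0.00).

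Housekeeping lists moved with the scaling. Of 72 ribosomal protein genes, 3 were higher after iTBS (median -0.18), but with quantile normalization 53 were (median 0.05) and with normexp 49 (0.03). Per matched pair, 50, 55 and 0 of the 72 were higher, so the shift lay in series D (median -0.53), whose iTBS array had a 75th percentile of processed signal of 7429 against 4270 for its partner. Without iTBS replicate 3 the median was 0.08. Respiratory complexes II to V gave the same pattern, with 1 of 36 higher (median -0.18), 13 with quantile normalization (-0.02), and 16, 24 and 0 by matched pair. Complex I had 6 of 33 higher (-0.12), and 17 with quantile normalization. Among their members, Cox5a differed by -0.37 ± 0.24 (SE), Atp5f1b by -0.37 ± 0.25, Uqcrc1 by -0.32 ± 0.24 and Ndufb5 by -0.33 ± 0.21. Rpl18 differed by -0.43 ± 0.31. These abundant transcripts lie where the whole cloud of probes bends below 0, as the plot of all probes shows, and the part of the slide and the signal strength in series D was not tested.

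Genes of cholesterol synthesis and uptake were lower after iTBS in 24 of 24 cases, with a median of -0.41, but none was called, while 52.9% of all genes were lower. With scaling to the 75th percentile and with quantile normalization none of the 24 was higher, with medians of -0.33 and -0.31, and with normexp 1 was (-0.34). Mean levels of the list were 6.77, 5.63 and 5.53 after iTBS and 7.12, 6.90, 5.57 and 5.85 after 1 Hz. Arrays of series A and B were the high ones and those of C and D the low ones, so 1 Hz had 2 high arrays and iTBS had 1. In matched pairs the medians were -0.09, 0.02 and -0.33, with 9, 15 and 1 of 24 higher, and without 1 Hz replicate 1 the median was -0.14 with 4 higher. Mvd, which forms isopentenyl pyrophosphate, differed by -0.62 ± 0.64 (SE) and Fdps, which makes farnesyl pyrophosphate, by -0.49 ± 0.50, both with an adjusted p of 1.00.

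Genes of hypoxia and glycolysis were higher in 6 of 26 cases (median -0.19, and between -0.12 and -0.14 with the other scalings). All matched pairs gave the same sign in 9 of the 26, each of them lower after iTBS, against 13.4% of all genes lower in all pairs. With the label triplet as a block, 5 of 26 had an unadjusted p under 0.05, against 2.61% of all genes, and none was called. Aldoa, aldolase of the middle of glycolysis, read 6.59, 6.68 and 6.997 after iTBS, 6.83, 7.08, 6.97 and 7.72 after 1 Hz, and 6.59, 6.70 and 7.21 in sham. In each series the iTBS array lay below its 1 Hz partner and at or below its sham partner, with a blocked difference of -0.50 ± 0.17 (SE), interval -0.85 to -0.16, adjusted p = 1.00. Hk1, the hexokinase of the brain, read 4.46, 4.29 and 4.98 after iTBS, 5.30, 4.99, 4.48 and 5.32 after 1 Hz, and 4.30, 4.40 and 4.67 in sham. Its blocked difference was -0.35 ± 0.14, interval -0.65 to -0.05. Gapdh and Pkm, named after their values were seen, gave blocked differences of -0.43 ± 0.21 and -0.53 ± 0.26. None of these enzymes was called. The pair of series D, with different slides and unequal signal, had the largest of the pair differences for Aldoa and Gapdh.

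Stress and timing genes showed no common direction. Cytosolic heat shock proteins were higher in 9 of 20 cases (median -0.06), with Dnaja1, a co-chaperone, at -0.29 ± 0.15 (SE). Without 1 Hz replicate 1, 10 were higher (-0.0021), and Dnaja1 was at -0.15. Genes of the endoplasmic reticulum and integrated stress response were higher in 11 of 26 (-0.01), circadian genes in 9 of 16 (0.04), temperature-linked RNA-binding proteins in 2 of 7 (-0.02) and glucocorticoid and FoxO targets in 12 of 19 (0.08). Nr1d2, a repressor of the clock, differed by 0.31 ± 0.28. Clk1, a splicing kinase, differed by 0.44 ± 0.28 and Zbtb16, a glucocorticoid target, by 0.77 ± 0.64, both with their lowest array in 1 Hz replicate 1, without which they were 0.069 and -0.19.

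**Figure D5:**
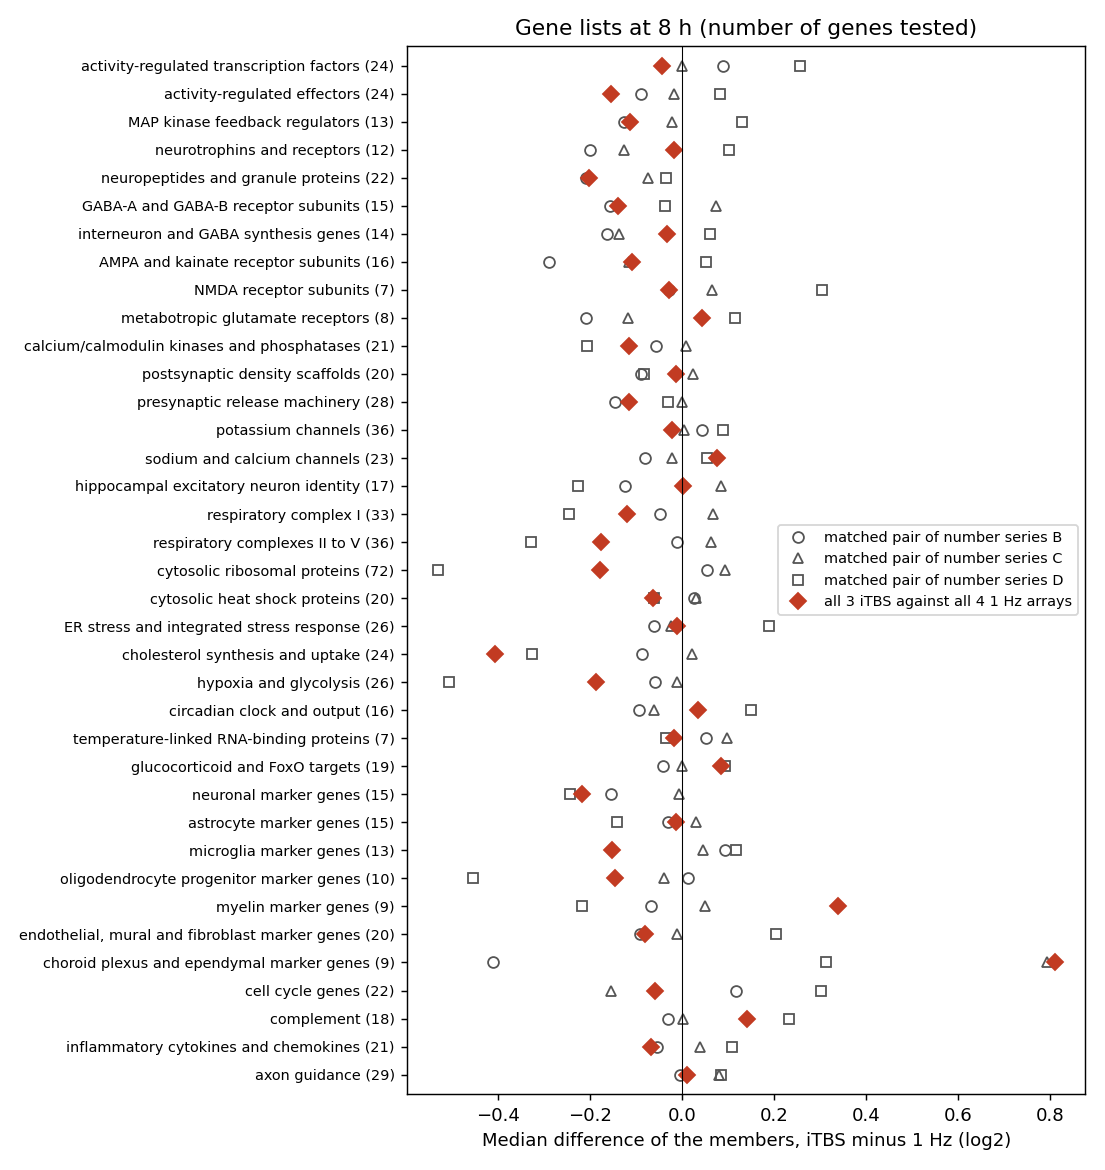
Median difference iTBS minus 1 Hz (log2) of each gene list, with the number of genes tested in brackets; red diamonds are all 3 against all 4 arrays and open symbols the matched pairs of series B, C and D. For ribosomal proteins the pairs of series B and C lie at 0.05 and 0.09 and that of series D at -0.53, and for choroid plexus markers the pairs run from -0.41 to 0.79.

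The markers showed neurons together with other cells. All 15 neuronal markers were well above background on all 7 arrays, 1 of 15 was higher after iTBS, and the median difference was -0.22 (-0.08 with quantile normalization, -0.05 with normexp). Without 1 Hz replicate 1, 4 of the 15 were higher (median -0.10). Dcx, a microtubule protein of young neurons, differed by -0.26 ± 0.21 (SE). Of astrocyte markers 14 of 15, of oligodendrocyte progenitor markers 10 of 10 and of myelin markers 9 of 9 were also well above background on all 7 arrays. For microglia this held for 6 of 13, and Csf1r, a defining receptor of microglia, was well above background on none of the 7. Medians for astrocytes, microglia, progenitors and myelin were -0.01, -0.15, -0.15 and 0.34, with 7 of 15, 5 of 13, 4 of 10 and 8 of 9 genes higher. Without 1 Hz replicate 1 they were -0.035, 0.068, -0.15 and -0.014.

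Levels of myelin markers, progenitor markers and cell cycle genes followed the number series. The mean level of the 9 myelin markers was 3.09, 4.97 and 1.27 on the iTBS arrays of series B, C and D and 3.12, 4.95 and 1.37 on their 1 Hz partners, with 1.29 on 1 Hz replicate 1. Partners thus lay close together while the series lay far apart, and the group median of 0.34 fell to -0.01 without 1 Hz replicate 1. Progenitor markers stood at 5.78, 6.12 and 3.65 after iTBS and 5.77, 6.14 and 4.09 in their partners. Cell cycle genes were at 4.39, 4.17 and 2.62 and at 4.25, 4.34 and 2.36. Of these 22 cell cycle genes, 7 were higher after iTBS in the group comparison (median -0.06), 18, 4 and 21 in the matched pairs and 19 without 1 Hz replicate 1 (0.071). Mobp, a protein of compact myelin, differed by -0.26 ± 0.27 (SE) and Vcan, a proteoglycan of progenitors, by 0.33 ± 0.27. Without 1 Hz replicate 1 these differences were -0.19 and 0.11. Ccne2, a cyclin of S phase entry, differed by 0.97 ± 0.81 and read -0.16 on 1 Hz replicate 1 against 1.54 to 3.57 on the other 1 Hz arrays, without which array the difference was 0.23.

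Vascular and fibroblast markers were higher in 8 of 20 cases (median -0.08), and the collagens among them were named after their values were seen. Col1a2, a chain of type I collagen, read 3.63, 4.84 and 7.32 after iTBS, 2.14, 1.78, 4.27 and 6.85 after 1 Hz, and 2.63, 4.78 and 7.88 in sham. In all 3 groups series D was several log2 units above series B, and within each series the iTBS array lay above its 1 Hz partner, but not always above its sham partner. Blocked differences were 0.96 ± 0.33 (SE) for Col1a2, 0.79 ± 0.38 for Col1a1 and 1.39 ± 0.54 for Col3a1, all with an adjusted p of 1.00. Unblocked, Col1a1 differed by 1.67 ± 2.06. Cldn5, a tight junction protein of endothelium, was well above background on 1 of the 7 arrays. Choroid plexus and ependymal markers were higher in 8 of 9 cases with a median of 0.81, but the matched pairs gave -0.41, 0.79 and 0.31. Folr1, a folate receptor of the choroid plexus, read -3.85 on 1 Hz replicate 1 and 0.23 to 0.88 on the other 1 Hz arrays, and its blocked difference was 0.26.

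Complement genes were higher in 11 of 18 cases (median 0.14), inflammatory cytokines and chemokines in 7 of 21 (-0.07; 12 and 0.055 without 1 Hz replicate 1) and axon guidance genes in 15 of 29 (0.01). Cfi, which cleaves active complement, differed by 0.46 ± 0.34 (SE) near background. Csf1, a growth factor of microglia, differed by 0.34 ± 0.40. Mean levels of the cytokine list were 1.70, 0.21 and 1.15 after iTBS and 1.79, 1.78, 0.11 and 0.87 after 1 Hz, with series C the low one in both groups. Sema3d, a secreted semaphorin, differed by 1.06 ± 0.57 and was well above background on 3 of 3 iTBS arrays and 1 of 4 arrays of 1 Hz, with an adjusted p of 1.00.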

How the data were processed

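Each sample was hybridised to a 1-colour Agilent rat array. The deposited files hold the processed intensity of each spot, which Agilent Feature Extraction 12.0.3.1 had background-corrected per the file headers. The deposited value table holds, for each probe and array, a score that the authors made by z-transforming the log signal within the array, and it was used as an alternative. Of 45598 probes, 420 without a value on some array were dropped, and 20929 (46.326%) took a symbol by accession from RefSeq (GRCr8), giving 16481 genes. The files name an older build, so no coordinates are given.

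The log2 signal was z-scored within each array and then brought back to log2 units with the arrays' median SD, 4.06. Probes well above background on at least 3 of 55 arrays were fitted with limma 3.58.1 in R 4.3.3 on 16 groups, without a block, with two-sided tests, 39 residual degrees of freedom and Benjamini-Hochberg adjustment over 35688 probes. Replicate 2 of 1 Hz at 2 h was left out because its grid was marked as badly placed. The fit was tested on simulated data.

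Samples were grouped by title. The alternatives were other scalings, normexp, filters, blocks, sets of arrays and the study's criteria as rebuilt here. The study filtered probes by ANOVA before its z-test and correction. Here the false discovery rate was taken over all 45178 probes. For normexp the median spot signal stood in for the mean signal, which the files do not hold. An offset of 50 was added, which makes log2 differences of dim spots smaller. The fits without bright local backgrounds and without 2 arrays together were added after seeing the data. Arrays with the same title number deviated together little or not at all (correlations 0.21, -0.16 and -0.16). Those with consecutive label numbers did so more (0.48, 0.54 and 0.48), and the pairing inferred from these numbers is not stated by the labels.

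The comparison and the gene lists were chosen with earlier results of these data known. Named genes were the called probes, up to 10 per direction with non-overlapping groups and one sign in all matched pairs, the 3 members of each list with the smallest p, probes called with a block, and Endou, Fos, Arc, Egr1 and Npas4. Others are said to be named after their values were seen. Each gene stands by its brightest probe. A few genes that these rules chose are not reported here.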

Additional observations from a re-analysis of the deposited data

Results flagged for a closer look

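Within the 4 arrays of 1 Hz at 8 h, 1 array lay far from the rest for 4 of the 71 genes followed. The measure was the ratio of its gap to the group's range, past Dixon's critical value for 4 samples. About 1 in 20 groups is expected past that value by chance, and 4 of 71 lies near that share. For 3 of the 4 the array was 1 Hz replicate 1. Syt7 read -1.31 there and -0.11 to 0.01 on the others (ratio 0.910). Folr1 read -3.85 against 0.23 to 0.88 (0.861). Gria2 read 1.52 against 1.68 to 1.71 (0.839), so that its lowest 1 Hz array was the unpartnered one. For Slc17a7 the low array was 1 Hz replicate 3, at -0.41 against 1.15 to 1.31 (0.906), and the iTBS and sham arrays of its series were also the lowest of their groups.

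The difference of Endou between iTBS and 1 Hz at 8 h exceeded the mean of those at 0, 24 and 48 h by 3.75 log2, adjusted p = 0.00618, in readings that lay at background on most of these arrays. The call did not hold without iTBS replicate 2, whose Endou spot lay on a bright local background (2.89, adjusted p = 0.508).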

How the results depend on the processing

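The 1 call at 8 h, Endou, became 0 with normexp, with only the 7 arrays, and without iTBS replicate 2 and 1 Hz replicate 1 together. It also became 0 with the title number as a replicate block on 7 arrays and with the label triplet as one on 6 arrays. The count of called probes among the named genes was 0 in the same fits. The study's criteria as rebuilt here, which Endou could not meet with a mean z-score below 0, also gave 0 probes and were not followed per gene. Of 35688 probes, 348 had an unadjusted p under 0.05, against 357 with normexp, 300 with 7 arrays and 603 with the title block. They numbered 1546 with the triplet block on 6 arrays, 323 without both arrays, 159 with all 56 arrays and 740 with the series block. With the triplet block over all groups there were 1202, and 697, 864 and 655 without 1 Hz replicate 2, 3 or 4. Other fits tested other numbers of probes. Without the filter on dim probes 726 of 45178 passed, and with a stricter filter 184 of a smaller number. The study's z-test, which is only 1 of its criteria, had 1476 of 45178 at p under 0.05. Leaving out 1 array at a time gave 1 to 2 calls, with A_44_P1104160 added without iTBS replicate 1, A_44_P1129872 without iTBS replicate 3 and Rtkn2 without 1 Hz replicate 3. Endou then ranged from 3.18 to 4.53. The contrast with the other times had 0 calls with scaling to the 75th percentile, normexp, and bright spots left out, and 0 to 2 with 1 array left out. The cause was not tested. Of 1556 values of the 71 genes over the alternatives, 1502 kept direction and side of the threshold and 48 changed sign. Endou was the only one of these genes called in the main fit, so for the rest keeping the side of the threshold says little. The alternatives also share most of their arrays. Of 444 list medians, 333 moved by less than the spread.

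With the label triplet as a replicate block on 6 arrays or over all groups, which leaves out 1 Hz replicate 1, the sign turned for Neurod2 (-0.11), Zbtb16 (-0.19), Rbfox3 (-0.10), Aqp4 (-0.013) and Npas4 (0.25). Npas4 was 0.21 with the series block, 0.25 with the slide block and 0.061 with the title block. Arc was -0.26 with the title block, -0.0090 with the 75th percentile and -0.081 with normexp, where A_44_P1104160 was -0.044 and Itpripl1 -0.25. Without both arrays the sign turned for Gria4 (0.10), Slc17a7 (0.012), Neurod2 (-0.17), Fdps (0.013), Higd1a (-0.25), Nr1d2 (-0.011), Clk1 (-0.040), Rbfox3 (-0.21), Aqp4 (-0.21), Vcan (-0.054), Egr1 (0.39) and Npas4 (0.50). With 1 array left out, Arc ranged from -0.67 to 0.72, Fos from -0.55 to 0.98, Npas4 from -0.59 to 0.25, Higd1a from -0.23 to 3.07, Egr1 from -0.76 to 0.16, Neurod2 from -0.11 to 1.20, Zbtb16 from -0.19 to 1.36, Rbfox3 from -0.10 to 1.41, Aqp4 from -0.013 to 0.82 and Pkm from -0.58 to 0.014.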
